A study of Mus musculus with 7 samples.

Results

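Heat shock proteins and their J-domain cochaperones were described in the medial prefrontal cortex of mice after retrieval of a remote memory. Members were chosen by symbol alone, as the Hspa, Hspb, Hsp90, Hspd, Hspe and Hsph genes, the numbered Dnaja, Dnajb and Dnajc genes, the transcription factors Hsf1 and Hsf2, and the cochaperones Bag3 and Stip1. This gave 73 of the 17732 genes listed, with 72 different symbols, because Hspa14 stands on 2 lines. The study sampled male wild-type mice of the inbred strain 129SvEv, and bulk polyadenylated RNA was sequenced from 7 libraries, 3 labelled CFC and 4 labelled SC. The labels give CFC and SC as treatments without spelling them out, and state neither the age of the mice nor whether a library is 1 animal. All groups share strain, sex, genotype and tissue.

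The only measurements analysed here are those of the authors' comparison of the groups, with 1 mean normalized count per gene over the libraries, 1 log2 fold change, its standard error and its p-values. No value of a single library or of a single group was used, so the spread between replicates enters only through the standard error that the authors estimated. Neither the labels nor the file headers name the numerator of the fold change, and differences are given by their sign. Each difference is written below as the log2 value ± its standard error. The sample is whole tissue, in which fewer cells of a type and less RNA per cell cannot be told apart. The tissue label was checked against neuronal markers, whose mean counts in the authors' deposited table ran from 4826 to 39800, against a median of 512 over all genes that passed the authors' filter on low counts. This speaks to neuronal tissue only and does not check the cortical region.

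Chaperones of the HSP70 family bind unfolded stretches of other proteins and release them through cycles of ATP hydrolysis. J-domain proteins, named Dnaja, Dnajb and Dnajc, deliver clients to HSP70 and start that hydrolysis, and HSP90 takes over part of the clients later. Under heat or other protein stress the factor HSF1 binds repeats of the letters GAA and TTC in promoters and raises the inducible members, whereas constitutive members are made at all times. In neurons the same machinery also uncoats clathrin vesicles and keeps synaptic proteins folded.

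The letters that HSF1 is known to bind, called heat shock elements, were looked for in the promoters of inducible and constitutive members. The inducible and constitutive lists were written from general knowledge and not from these letters. RefSeq promoter windows of the GRCm38.p6 assembly, from 250 bases before to 50 bases after a gene's start, were found for 59 of the 72 symbols. They were searched for GAANNTTC and TTCNNGAA, each its own reverse complement, and for the longer GAANNTTCNNGAA and its reverse complement TTCNNGAANNTTC, which contain the short forms. A short form stood in a window of 7 of the 9 inducible genes that had one, namely Hspa1a, Hspa1b, Hspb1, Hsph1, Dnaja4, Dnajb4 and Bag3, the last with a match only after the start. Among the 10 constitutive genes with a window, 2 held a short form, Dnaja1 and Dnajb6. Over all 27025 genes with a window the share was 17.0%. The long form was found in 4 of the 59 members with a window (6.78%), and in 0.662% of all genes with one. These 4 members were Hspd1, Hspe1, Dnajb6 and Hsph1, the last with its long match only after the start. In the stretches below, shown so that the matches of inducible and other members can be compared, all upstream of the start and written 5′ to 3′ along the gene's strand, capitals mark the matched letters.
Hspa1a, chr17:34972228-34972285, minus strand, with the same letters before Hspa1b at chr17:34959310-34959367: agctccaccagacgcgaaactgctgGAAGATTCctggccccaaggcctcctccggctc
Hspb1, chr5:135887777-135887854, plus strand: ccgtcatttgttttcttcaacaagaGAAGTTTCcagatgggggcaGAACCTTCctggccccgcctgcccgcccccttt
Dnaja4, chr9:54699444-54699539, plus strand: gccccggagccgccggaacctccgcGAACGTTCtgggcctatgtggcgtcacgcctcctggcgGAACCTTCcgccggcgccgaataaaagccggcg
Hsph1, chr5:149636337-149636394, minus strand: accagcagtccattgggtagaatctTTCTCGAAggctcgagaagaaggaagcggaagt
Dnaja1, chr4:40722319-40722376, plus strand: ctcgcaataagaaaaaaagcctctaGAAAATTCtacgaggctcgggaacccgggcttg
Dnajb6, chr5:29735827-29735889, plus strand: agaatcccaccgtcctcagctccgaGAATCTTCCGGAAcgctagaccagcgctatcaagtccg
Hspe1, chr1:55088034-55088101, plus strand: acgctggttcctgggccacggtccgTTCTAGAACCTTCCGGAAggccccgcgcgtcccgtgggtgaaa
The Hspe1 stretch is also, on the opposite strand, the promoter of Hspd1, since these 2 genes start close together and are read in opposite directions. A match describes letters in a window and is not a measured binding site.

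No member passed the test between the groups after adjustment over all genes. Of the 73 members, 63 had an adjusted p-value in the authors' deposited table, and 0 of them were under 0.05, against 0.513% of the 13060 genes with such a value, by the Wald test with Benjamini-Hochberg adjustment. Before adjustment, 1 member of the 63 passed 0.05, or 1.59%, where 8.1% of all genes with an adjusted p-value did so. That member was negative, and 3.54% of all genes were negative and passed in the same way. After adjustment the members' p-values ran from 0.629 to 0.999 by the authors' deposited table. By sign, 35 members were positive and 28 negative, a positive share of 55.6% beside 49.4% over all genes.

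The differences were also small. The median log2 fold change of the 63 members was 0.0047, beside -0.0017 over all genes, in the authors' deposited table. Their extremes there were -0.38 for Hspa1b and 0.27 for Dnajc19, and the median size without sign was 0.05, beside 0.07 over all genes. The 95% intervals of 40 members (63.5%) lay within a 1.2-fold change either way, as did those of 47.1% of all genes. Within 1.5-fold lay the intervals of 59 members (93.7%, beside 87.9% of all genes) and within 2-fold those of all 63, beside 98.3%. The members also had higher mean counts, with a median of 943 beside 512 for all genes. Their median standard error was smaller, at 0.080 beside 0.098. The part of the higher mean counts in these shares and in the smaller median size was not tested. The 4 members whose intervals reached beyond 1.5-fold were Hspa1a, Hspa1b, Hspa1l and Dnajc19, which had mean counts between 50.7 and 109 in the authors' deposited table. For most members a change of 1.5-fold or more is thus outside the interval, while for these 4 it was not resolved.

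The inducible cytosolic list held 10 genes, and 9 of them had an adjusted p-value. By the authors' deposited table none of the 9 passed 0.05 before or after adjustment. By sign, 2 were positive and 7 negative, their differences ran from -0.38 to 0.04, and the median was -0.02. The constitutive cytosolic list of 13 genes, on 14 lines, had, by the authors' deposited table, 10 positive and 4 negative lines, a median of 0.03 and a range from -0.20 to 0.22. None of these 14 lines passed after adjustment, and 1 passed unadjusted. Among all genes with an adjusted p-value, 0.513% passed after adjustment and 8.1% unadjusted. Whether the lists differ from each other was not tested, because the genes come from the same libraries and no value per library was used.

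Hspa1a and Hspa1b encode the classical stress-induced HSP70 and lie close together on chromosome 17. Hspa1b had a mean count of 86.4 and a log2 fold change of -0.38 ± 0.24 (unadjusted p 0.117, adjusted p 0.829) in the authors' deposited table. Hspa1a had a mean count of 50.7 and a log2 fold change of -0.10 ± 0.27 (adjusted p 0.999) in the authors' deposited table. The intervals, from -0.86 to 0.10 and from -0.62 to 0.42, overlap over most of their length. These copies share much of their sequence. Of the 50-base words in the annotated transcripts of Hspa1a, 66.3% also occur in another annotated gene, foremost Hspa1b, and 62.3% of those of Hspa1b occur elsewhere, foremost in Hspa1a. Their promoter windows were identical at 296 of 300 bases. How reads that fit both genes were counted is not given in the sources used here, so the level and the difference of each gene alone are uncertain.

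The inducible members with many reads were tightly measured. Hsp90aa1, the stress-inducible cytosolic HSP90, had a mean count of 5779 and a log2 fold change of -0.01 ± 0.05 in the authors' deposited table. Hsph1, a nucleotide exchange factor of the HSP110 family that resets HSP70, stood at 5611 and -0.02 ± 0.06 in the same columns of the authors' deposited table. For this pair the interval in linear terms ran from 0.921 to 1.07 and from 0.916 to 1.07 times the other group, so a rise or a fall of 10% lies outside both. Hspa4l, a testis- and brain-expressed HSP110 relative, had a log2 fold change of 0.04 ± 0.06 in the authors' deposited table.

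The J-domain proteins Dnajb1 and Dnajb4, which drive HSP70 in the disassembly of protein aggregates, stood at -0.04 ± 0.10 and -0.07 ± 0.07 by the authors' deposited table. Their relative Dnaja4 stood at 0.0026 ± 0.10, and 42.7% of its 50-base words occur in another gene, foremost Wdr61, whose exons overlap its own on the opposite strand. Bag3, which links HSP70 to autophagy of damaged proteins, had a mean count of 92.3 and a log2 fold change of -0.0078 ± 0.19 in the authors' deposited table. Hspb1, the small heat shock protein HSP27 or HSP25, had a mean count of only 10.1, no adjusted p-value and a log2 fold change of -0.16 ± 0.55 in the authors' deposited table. For Dnajb1, Dnajb4, Dnaja4, Bag3, Hspa4l, Hsph1 and Hsp90aa1 the authors' deposited table gives adjusted p-values from 0.956 to 0.999.

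Both heat shock factors were detected, at 114 counts per kilobase of exon for Hsf1 and 66.6 for Hsf2. Hsf1, the main activator of the stress response, had a mean count of 810 and a log2 fold change of -0.0083 ± 0.08 in the authors' deposited table (adjusted p 0.999). Hsf2, its developmental relative, had a mean count of 639 and a log2 fold change of 0.09 ± 0.08 in the authors' deposited table (adjusted p 0.960). HSF1 is activated mainly at the protein level, which a transcript count does not show.

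Among the constitutive members, Hsp90ab1 had the third-lowest unadjusted p-value of the 63. This gene, the constitutive cytosolic HSP90, had a mean count of 27613 and a log2 fold change of 0.08 ± 0.05 in the authors' deposited table (unadjusted p 0.0849, adjusted p 0.784). Its interval ran from -0.01 to 0.18. Its inducible counterpart Hsp90aa1 had a difference 0.10 lower on the log2 scale, which was not tested. Hspa8, the constitutive HSC70 that uncoats clathrin vesicles, had a mean count of 1204 and a log2 fold change of 0.05 ± 0.08 (adjusted p 0.998) in the authors' deposited table. Hspa4, the constitutive HSP110 relative of Hspa4l, stood at 0.07 ± 0.06 in the authors' deposited table.

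The synaptic J-domain proteins were among the most abundant and most narrowly measured members. Dnajc5, the cysteine string protein of synaptic vesicles, had a mean count of 8188 and a log2 fold change of 0.0047 ± 0.05 in the authors' deposited table. Dnajc6, the neuronal auxilin that recruits HSC70 to clathrin coats, had a mean count of 8826 and a log2 fold change of 0.05 ± 0.05 in the authors' deposited table. Stip1, the adaptor that joins HSP70 to HSP90, stood at 0.02 ± 0.07 in the authors' deposited table. After adjustment their p-values there were 0.999, 0.984 and 0.999.

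Hspa14, an HSP70 relative at the ribosome, was the 1 member under an unadjusted p-value of 0.05, and its symbol stands on 2 lines of opposite sign. ENSMUSG00000109865 had a mean count of 426 and a log2 fold change of -0.20 ± 0.10 (unadjusted p 0.0460, adjusted p 0.629) in the authors' deposited table. ENSMUSG00000051396, which GENCODE M21 names Gm45902, had a mean count of 152 and a log2 fold change of 0.22 ± 0.15 (unadjusted p 0.154, adjusted p 0.875) in the authors' deposited table. Both lie on the minus strand of chromosome 2 in GRCm38, at 3488850 to 3512814 and at 3504527 to 3512790, and 7.91% of the exon bases of the first are also exon of the second. Reads from the shared part cannot be assigned to 1 of them.

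In the endoplasmic reticulum, chaperones are induced mainly by the unfolded protein response. The list does not hold every J-domain protein of this compartment, since Dnajb12 and Dnajb14, which sit in its membrane, are outside it. These 9 genes had 6 positive and 3 negative members, with 0.05 as the median difference. By the authors' deposited table no gene of it passed 0.05 before or after adjustment. Dnajb9, the J-domain protein that holds the stress sensor IRE1 in check, had a log2 fold change of 0.18 ± 0.09 (unadjusted p 0.0547, adjusted p 0.669) in the authors' deposited table. Hspa5, or BiP, the HSP70 of this compartment, was negative at -0.12 ± 0.08 (unadjusted p 0.142, adjusted p 0.862) in the authors' deposited table. Hsp90b1, or GRP94, stood at -0.05 ± 0.05 (adjusted p 0.984) in the authors' deposited table. The members with the lowest p-values on this list thus did not share a sign. The fixed list of 13 other genes of the response gave 3 positive and 10 negative genes, and -0.06 was the median. By the authors' deposited table, Canx alone of these 13 passed 0.05 before adjustment and 0 genes after it. The shares of all genes with an adjusted p-value were 8.1% before adjustment and 0.513% after it. Canx, a lectin chaperone, stood at 0.14 ± 0.05 (unadjusted p 0.00830, adjusted p 0.339) in the authors' deposited table. Creld2 and the transcription factor Xbp1 followed at -0.20 (adjusted p 0.859) and -0.09 (adjusted p 0.906) by the authors' deposited table.

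The mitochondrial list of 8 genes had 6 positive and 2 negative members. By the authors' deposited table the median difference was 0.02, and none passed 0.05 before or after adjustment. Of all genes with an adjusted p-value, 8.1% passed before it and 0.513% after it. The matrix HSP70 Hspa9 stood at 0.03 ± 0.06 in the authors' deposited table. The chaperonin Hspd1 and its lid Hspe1, which share the promoter printed above, stood at 0.04 ± 0.06 and 0.08 ± 0.13 by the authors' deposited table. After adjustment the p-values of Hspa9, Hspd1 and Hspe1 were 0.999, 0.995 and 0.995. Dnajc19, a part of the import motor, was the highest of all 63 members at 0.27 ± 0.19 (adjusted p 0.874), and Dnajc30 and Dnajc11 were negative at -0.13 and -0.09 (adjusted p 0.912 and 0.922) in the authors' deposited table. Exons of Dnajc30 overlap those of Bud23 on the opposite strand, over 26.3% of its exon bases.

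The other members named by the rule were Dnajb14, Hspb11 and Dnajc21. Dnajb14, a J-domain protein of the endoplasmic reticulum membrane, stood at 0.09 ± 0.07, and Hspb11, a subunit of the ciliary transport complex, at 0.21 ± 0.19, in the authors' deposited table. Dnajc21, a ribosome biogenesis factor, stood at -0.15 ± 0.13 in the authors' deposited table. After adjustment the p-values of Dnajb14, Hspb11 and Dnajc21 were 0.900, 0.956 and 0.944. The 20 members on none of the lists, these 3 included, had 9 positive and 11 negative values, from -0.15 to 0.21, with unadjusted p-values of 0.174 or more in the authors' deposited table.

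**Figure D1:**
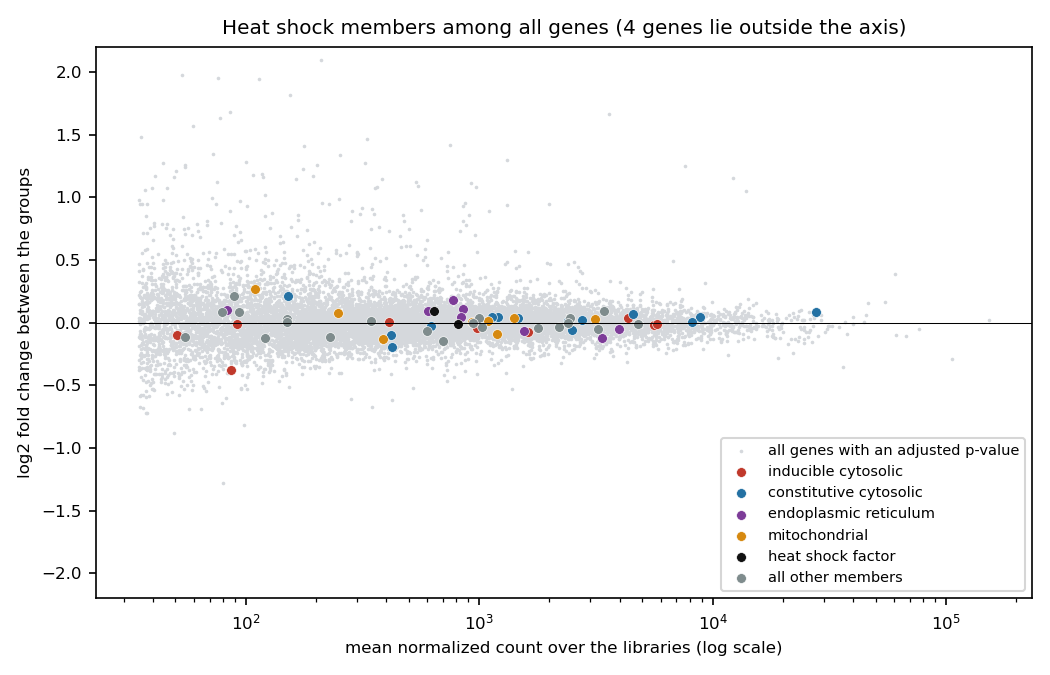
Log2 fold change between the groups (y axis) against the mean normalized count (x axis, log scale) for all 13060 genes with an adjusted p-value (grey) and the 63 members, coloured by list. The members lie between -0.38 and 0.27 over the range of mean counts from 50.7 to 27613.

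The 10 members without an adjusted p-value had mean counts from 1.88 to 32.4 in the authors' deposited table, below the authors' filter. They were Hspb1, Hspb2, Hspb3, Hspb7, Hspb8, Hspb9, Dnajb3, Dnajb7, Dnajb13 and Dnajc17. Of the 8 Hspb genes, 2 therefore had an adjusted p-value, Hspb6 and Hspb11, and the small heat shock proteins were mostly near the limit of these libraries. The log2 fold changes of the 10 ran from -0.61 to 2.97 with standard errors from 0.33 to 1.57 in the authors' deposited table, and none passed 0.05 before adjustment, where 6.82% of all 17729 genes with a p-value did. The highest of them was Hspb2, at a mean count of 1.88, with an interval from -0.11 to 6.05. Exons of Hspb2 overlap those of Cryab on the opposite strand over 30.2% of its exon bases.

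Levels were compared between genes as the mean normalized count per kilobase of annotated exon. Hsp90ab1 stood far above the other members on this scale, at 9208 counts per kilobase. Dnajc6 followed at 1494, Hsp90aa1 at 1470, Dnajc5 at 1178 and Stip1 at 1140. Hsp90ab1 exceeded 99.9% of all genes with an adjusted p-value, and per kilobase it stood at 6.26 times its inducible counterpart Hsp90aa1. The ratio of constitutive to inducible level per kilobase was 16.4 for Hspa8 to Hspa1a, 9.08 for Hspa8 to Hspa1b and 2.24 for Hspa4 to Hspa4l. Hspa4 and Hspa4l had similar mean counts, 4575 and 4361, over annotated exons of 5528 and 11792 bases. Their ratio thus rests mostly on the annotated lengths. The ratio was below 1 for Dnaja1 to Dnajb1, at 0.557. By mean count their order was the reverse, with 1466 for Dnaja1 and 977 for Dnajb1. Their annotated exons span 8629 and 3204 bases, and 20.55% of the 50-base words of Dnaja1 occur in other annotated genes. Which gene of that pair is the more abundant is therefore not settled. The inducible genes with an adjusted p-value ran from 17.1 counts per kilobase for Hspa1a to 1470 for Hsp90aa1, well below Hsp90ab1 at 9208. Hsp90aa1 and Hsph1 exceeded 97.5% and 93.3% of genes, and Dnajb1 exceeded 79.1%, whereas Bag3, Hspa1b and Hspa1a, at 36.0, 30.8 and 17.1 counts per kilobase, exceeded 19.8%, 16.6% and 8.04%. The order within this range has no replicate check, because only the mean over the libraries is known.

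Some members have near-identical copies among the annotated genes, which leaves their level uncertain. Hspa8 stood at 280 counts per kilobase, and 39.4% of its 50-base words occur in other annotated genes, foremost Gm15459. The corresponding shares were 47.5% for Hsp90aa1, 42.1% for Hspd1 and 22.8% for Hspe1, beside 3.44% for Hsp90ab1 and 0% for Hsph1 and Hspa5. In all, 15 of the 73 members shared over 10% of their words, 12 of them with an adjusted p-value. Words were matched on either strand, so not all of these 15 are genes with copies. Hspa1l, Dnaja4, Hspb2, Dnajc30 and Dnajc14 shared most with a gene whose exons overlap theirs on the opposite strand. Exons of 27 of the 73 members overlap those of another gene. Whether reads that map to several places were dropped or divided is not given in the sources used here, and its part in the ratio of Hsp90ab1 to Hsp90aa1 and in the level of Hspa8 was not tested.

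**Figure D2:**
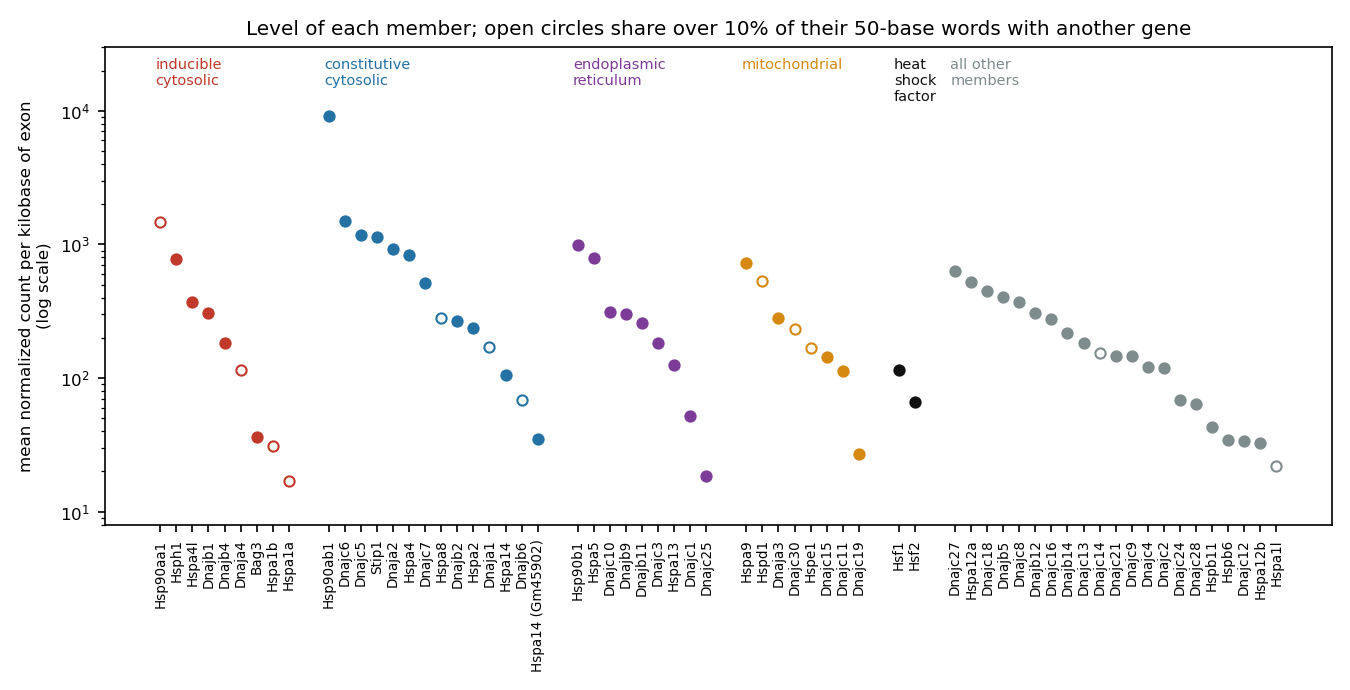
Mean normalized count per kilobase of exon (y axis, log scale) for the 63 members, ordered within each list; open circles mark the members that share over 10% of their 50-base words with another annotated gene. Hsp90ab1 stands at 9208 and Hspa1a at 17.1, and Hsp90aa1, Hspa8 and Hspd1 are open.

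The members' standard errors were close to those of other genes of similar mean count, while the spread between libraries was not seen directly. The standard error of a gene was set against that of genes of similar mean count, taken as a running median, and this ratio had a median of 0.98 over the members, with a range from 0.87 to 1.48. No member exceeded 1.5, beside 2.19% of all genes. The highest ratios were those of Dnajc21 at 1.48, Hspa5 at 1.37 and Dnajb1 at 1.32, and Hspa1b stood at 1.21. The 10 oligodendrocyte markers, by contrast, had ratios from 4.20 to 9.0. Their log2 fold changes, from 0.95 to 1.67, were all positive in the authors' deposited table. Of these markers 10 of 10 passed an unadjusted p-value of 0.05 and 0 the adjusted one, beside 8.1% and 0.513% of all genes.

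Markers of cell types and cortical layers were read from the same comparison. Of 8 deep-layer markers all were positive and 5 had an adjusted p-value under 0.05, and of 7 upper-layer markers all were negative and 2 passed, in the authors' deposited table. All 8 endothelial markers were negative, with -0.16 as their median, and 6 of 7 microglia markers were negative, with -0.13 as theirs. In the authors' deposited table the p-values of 3 endothelial and 2 microglia markers passed 0.05 before adjustment, and 0 of either list after it. Astrocyte and neuron markers had medians of -0.0081 and -0.01, with 3 of 7 and 2 of 7 positive. Before adjustment 2 astrocyte and 1 neuron markers passed 0.05 by the authors' deposited table, and none after it. For all these marker lists, the corresponding shares of all genes with an adjusted p-value were 8.1% before adjustment and 0.513% after it. The marker lists, the oligodendrocyte one included, were chosen with earlier results of these data known, so these counts only describe them. The part of these markers' differences in the members' values was not tested.

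The partners of the chaperones outside the families were read from a fixed list of 31 genes, among them the subunits of the CCT chaperonin, HSP90 cochaperones and nucleotide exchange factors. In the authors' deposited table the values of 16 were positive and those of 15 negative, and 0.02 was the median difference. Of the 31, 0 passed 0.05 before or after adjustment, where 8.1% and 0.513% of all genes did. The lowest p-values were those of Ptges3, the HSP90 cochaperone p23, at 0.17 ± 0.10, and of Cryab, at 0.55 ± 0.35, in the authors' deposited table. Ahsa1, an activator of the HSP90 ATPase, followed at -0.10 ± 0.07 in the authors' deposited table. After adjustment the p-values of Ptges3, Cryab and Ahsa1 were 0.796, 0.827 and 0.833. Cryab, a small heat shock protein outside the symbol rule that is abundant in oligodendrocytes, had a ratio of 2.89 for its standard error.

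**Figure D3:**
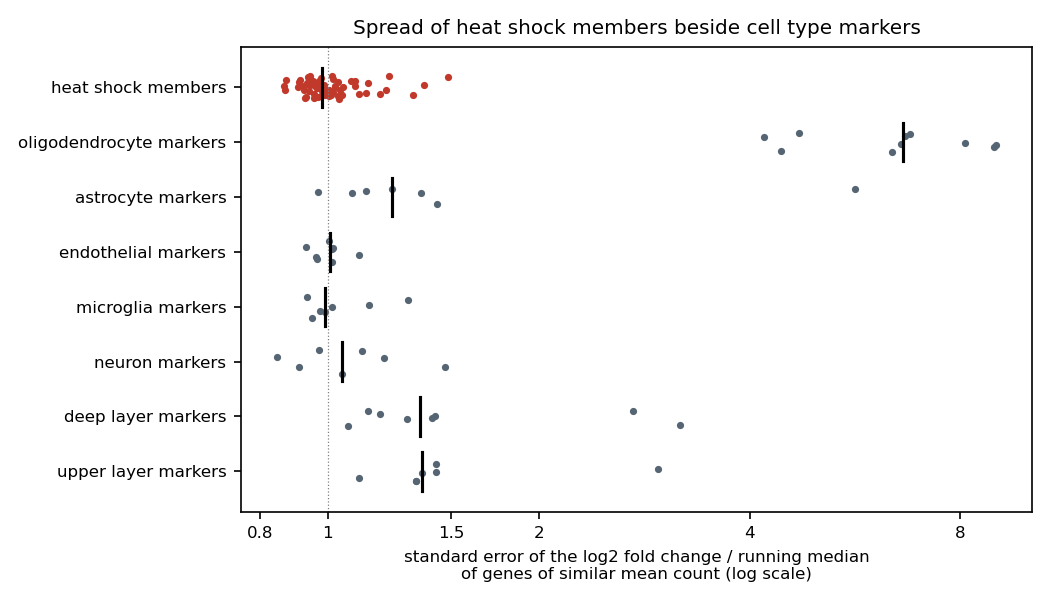
Standard error of the log2 fold change divided by the running median of genes of similar mean count (x axis, log scale) for the 63 members and 7 marker lists; each point is a gene and each bar a median. The members lie between 0.87 and 1.48, and the oligodendrocyte markers between 4.20 and 9.0.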

How the data were processed

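Per the labels' protocols, libraries were made from 100 ng of RNA (RNeasy Micro) with KAPA mRNA HyperPrep. Per the submitters' processing notes, Trimmomatic, Subread and DESeq2 were used on the mm10 build, with no role or version given. The deposited file is 1 table of the authors' comparison over 7 libraries. Per the file headers, it holds a mean normalized count (a signal averaged by the authors), a log2 fold change, its standard error and Wald statistic (scores computed by the authors), and p-values before and after adjustment. On the deposited values, the p-value was checked to be the two-sided normal one of difference over standard error. The depth of single libraries is unknown, and the p-values measure only the spread between these libraries, which may be technical.

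The 95% intervals use the normal quantile and the standard error. Counts rest on the authors' adjusted p-value at 0.05, given for 13060 genes. Exon lengths, overlaps and shared 50-base words came from GENCODE M21 (GRCm38, the same build as mm10), with lengths as the union of all annotated exons, which lowers the level per kilobase of genes with long rare isoforms. It held 17726 of the 17732 IDs. The running median took 501 genes. Promoter windows are RefSeq's. Python 3.11.15, pandas 2.3.3, numpy 2.4.6 and scipy 1.17.1 were used, and the interval and adjustment code was tested on simulated data.

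The members and lists were chosen with earlier results of these data known, the gene lists from general knowledge. Named members are the inducible list, the heat shock factors, 10 core chaperones, the 6 positive and 6 negative members with the smallest p-values and the 5 highest per kilobase; of the other lists, the 3 smallest p-values. Genes named beyond these were chosen after their values were seen. Alternatives were other thresholds, filters and null hypotheses. Tables of single libraries were not analysed here.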

Additional observations from a re-analysis of the deposited data

How the results depend on the processing

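No paired analysis was possible because values of single libraries were not analysed here. Leaving out a library was not run for this reason, so whether 1 library decides a value was not tested. The count of 0 members stayed 0 at a threshold of 0.1, with an adjustment over all genes with a p-value, with a mean count of at least 100, with a Bonferroni adjustment, against a null of at most a 1.2-fold change, and over the 51 members sharing at most 10% of their 50-base words, the last chosen after the data were seen. The lowest adjusted p-value of a member under these was 0.567, with a mean count of at least 100. At an unadjusted p-value under 0.05 the count was 1. Over all genes the count of 67 moved to 101 at a threshold of 0.1, 21 with Bonferroni, 2 against the 1.2-fold null and 1058 unadjusted, while it was 60 with no filter and 68 with a mean count of at least 100. All 90 alternative tests of the 30 named lines with an adjusted p-value kept their side of 0.05. The Bonferroni adjustment and the 1.2-fold null can only raise a p-value. For these members they could thus not have changed a call or the count of 0. The members with little shared sequence kept the same adjusted p-values, so that setting could not have raised the count either. The inducible median log2 fold change ran from -0.03 to -0.01 and the constitutive one was 0.03 under each alternative that gives a median, including without the Gm45902 line and without members with shared sequence, both chosen after the data were seen. The means weighted by the inverse squared standard error were -0.02 and 0.02. Low mean counts limit most the 10 members without an adjusted p-value, whose standard errors are 0.33 or more.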
